A study of Mus musculus with 6 samples.

Results

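The genes of insulin signalling and the insulin-responsive glucose transporter GLUT4 were examined in subcutaneous white fat of the mouse. The set has 9 genes, chosen by name: Insr, Irs1, Irs2, Pik3r1, Pik3ca, Akt1, Akt2, Tbc1d4 and Slc2a4. Each name stood on a single row of the deposited table, which has 36144 rows, and all 9 were among the 14123 genes that reached 1 TPM in 3 or more libraries and were tested. TPM is a length-corrected abundance whose values have the same sum in every library, so levels of different genes can be set side by side.

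The study sequenced poly-A RNA from 6 libraries, 3 titled WT and 3 titled Tumor, each with biological replicate numbers 1 to 3. The genotype label gives the WT libraries as MSRA WT and the Tumor libraries as MSRA full-body KO, and the treatment label of all 6 is an orthotopic transplant. The design text has pancreatic ductal adenocarcinoma cells placed into wild-type and knockout hosts, with fat collected 4 to 5 weeks later, whereas the series title contrasts tumour-bearing mice with tumour-free controls. The sources used here do not give strain, sex or age. Msra transcripts stood at 51.1, 59.1 and 56.3 TPM in WT and 52.9, 40.0 and 26.9 TPM in Tumor, so they were not absent in the libraries labelled knockout. A value for the whole gene does not show whether part of the gene or its protein was missing. Tumour status, genotype and any batch aligned with the groups cannot be told apart. Directions below are therefore those of the libraries labelled Tumor against the libraries labelled WT.

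Insulin binds its receptor (Insr), a tyrosine kinase that phosphorylates the docking proteins IRS1 and IRS2. These recruit the p85 regulatory and p110 catalytic subunits of phosphoinositide 3-kinase (Pik3r1 and Pik3ca), whose lipid product activates the kinases AKT1 and AKT2. In fat cells AKT2 phosphorylates AS160, the Rab GTPase-activating protein encoded by Tbc1d4, and this releases vesicles that carry GLUT4 (Slc2a4) to the cell surface, where the transporter takes up glucose. GLUT4 is also the main insulin-responsive transporter of skeletal muscle. Most of this control acts on phosphorylation and vesicle traffic, which transcript levels do not show.

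The 6 libraries differed in the cells they held. Summed B and plasma cell markers (11 genes) stood at 8.49 to 1121 TPM in WT and 11.6 to 2931 TPM in Tumor, with WT replicate 3 and Tumor replicate 1 low in these markers and the other 4 libraries high; the former are called lymphoid-poor and the latter lymphoid-rich. Of that list Mzb1 was at 0 in at least 1 library, and so was Chst4 of the lymph node stroma list. Summed skeletal muscle markers (16 genes, such as Acta1 and Ckm) ran from 13.5 to 3937 TPM in WT and from 772 to 3118 TPM in Tumor. Adipocyte markers (16 genes, led by Cfd and Fabp4) were present in every library and summed to 42338 to 74562 TPM in WT and 16916 to 62526 TPM in Tumor, lowest in Tumor replicate 3. In bulk tissue fewer cells of a type and less RNA per cell cannot be told apart.

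The sequences upstream of the docking protein genes are shown because Irs1 and Irs2 share a short stretch there. Windows of 250 bases before a RefSeq start site (GRCm38.p6) were at hand for 7 of the 9 genes, with 12 start sites in all; none was at hand for Insr and Slc2a4. The windows are written 5′ to 3′ on the strand of the gene, which is the minus strand for all 3, and lie at chr1:82291440-82291689 for Irs1, chr8:11008930-11009179 for Irs2 and chr12:112674885-112675134 for the farther upstream of 2 Akt1 starts. Capitals mark matches, on either strand, to CACGTG (the E-box core), TGTTTAC (a FoxO consensus) or TGTTTTG (the reverse complement of CAAAACA, an insulin response sequence that FoxO factors can bind).
Irs1: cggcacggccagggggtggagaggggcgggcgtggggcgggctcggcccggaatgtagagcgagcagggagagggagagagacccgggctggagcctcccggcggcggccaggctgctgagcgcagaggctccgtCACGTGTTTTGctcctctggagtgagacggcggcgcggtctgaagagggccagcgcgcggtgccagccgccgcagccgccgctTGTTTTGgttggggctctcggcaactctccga
Irs2: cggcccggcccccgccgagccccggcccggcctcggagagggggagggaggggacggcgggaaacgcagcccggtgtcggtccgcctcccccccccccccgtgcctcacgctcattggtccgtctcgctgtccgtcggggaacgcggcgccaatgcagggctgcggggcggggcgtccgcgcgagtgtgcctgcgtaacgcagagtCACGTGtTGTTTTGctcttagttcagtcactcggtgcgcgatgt
Akt1: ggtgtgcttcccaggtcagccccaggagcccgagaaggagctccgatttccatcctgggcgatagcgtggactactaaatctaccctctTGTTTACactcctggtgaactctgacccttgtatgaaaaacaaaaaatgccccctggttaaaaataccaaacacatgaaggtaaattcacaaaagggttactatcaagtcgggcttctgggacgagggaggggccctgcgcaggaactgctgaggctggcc

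CACGTG began 115 bases before the start site in Irs1 and 44 bases before it in Irs2, and it was found in 6.02% of 32851 windows of the same length. TGTTTTG began 111 and 32 bases before the start in Irs1 and 37 bases before it in Irs2, and was found in 5.56% of windows. In Irs1 the first TGTTTTG overlaps CACGTG by its first bases, and in Irs2 the motifs stand apart. Both motifs together were found in 0.295% of windows. The longest runs shared by the Irs1 and Irs2 windows had 10 bases. GTCACGTGTT was such a run and was found in 23 windows of the 32851. TGTTTTGCTC has the same length and is shared as well, and the windows that hold it were not counted. TGTTTAC was found upstream of Akt1 alone among the 7 genes and in 3.17% of all windows. These matches describe letters in a window, and the table holds no measurement of binding there.

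By mean level over the 6 libraries the genes stood in the order Akt2 (178 TPM), Slc2a4 (110 TPM), Akt1 (84.6 TPM), Pik3r1 (45.1 TPM), Tbc1d4 (30.3 TPM), Pik3ca (23.5 TPM), Insr (16.1 TPM), Irs2 (10.8 TPM) and Irs1 (10.5 TPM). Among 14123 genes tested, Akt2 ranked at the 95.02 percentile of mean level and Slc2a4 at the 91.4 percentile, whereas Irs1 and Irs2 ranked at the 38.6 and 39.2 percentiles. The receptor and the docking proteins Irs1 and Irs2 were thus the least abundant transcripts of the set. Akt2 exceeded Slc2a4, and Akt1 exceeded Pik3r1, in 6 of 6 libraries. Irs2 exceeded Irs1 in only 3 of 6, and Pik3r1 exceeded Tbc1d4 in 4 of 6, so these neighbours did not differ beyond their spread (SD over libraries 4.07 and 5.71 TPM for Irs2 and Irs1, 21.4 and 10.6 TPM for Pik3r1 and Tbc1d4). Each other pair of neighbours kept its order in 5 of 6 libraries.

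**Figure D1:**
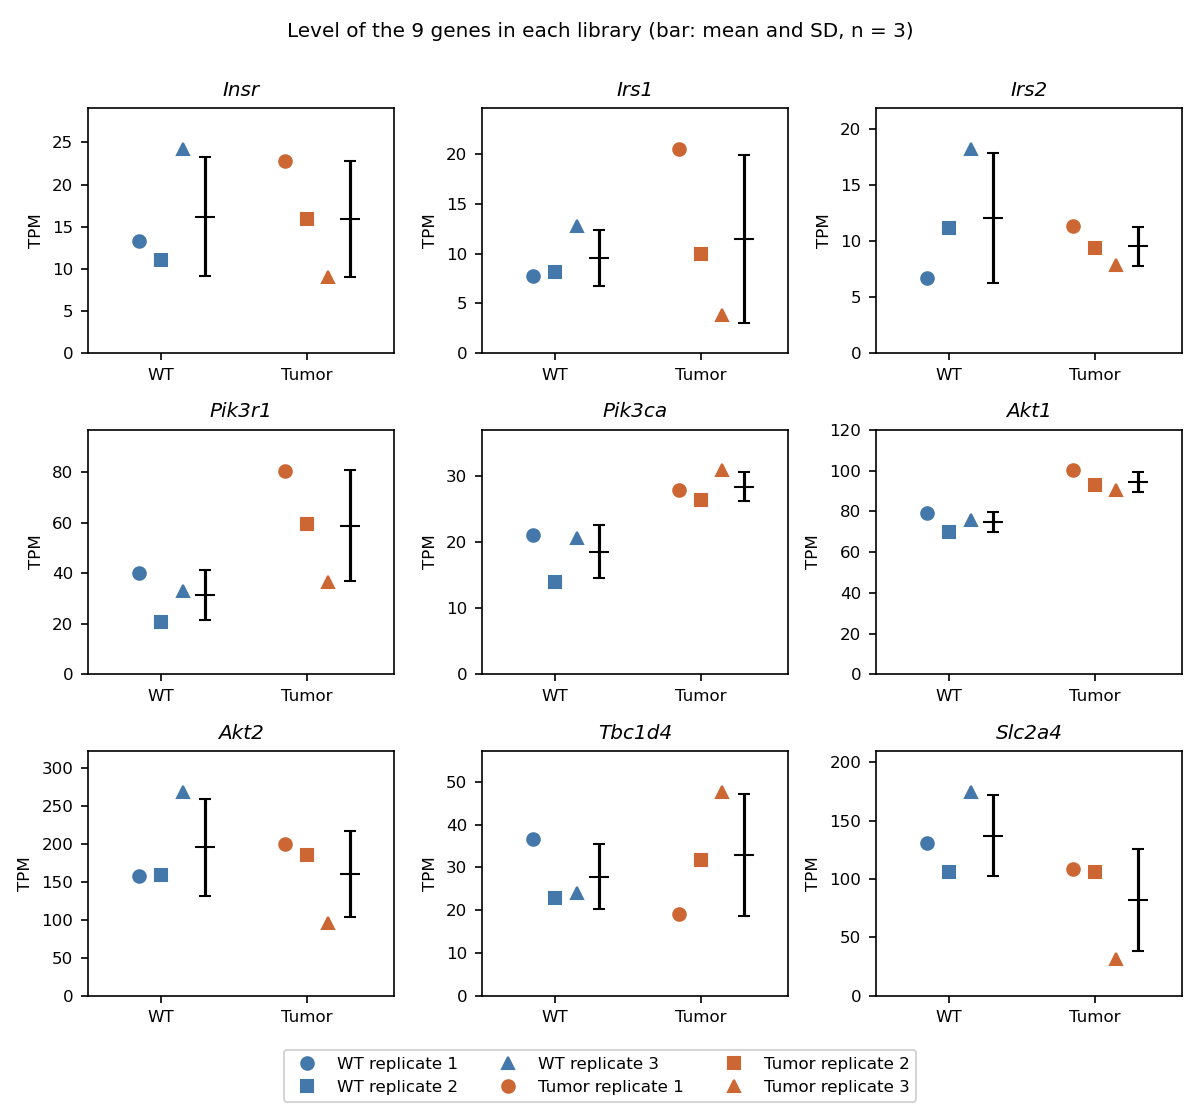
TPM of the 9 genes in each of the 6 libraries (points, vertical axis from 0), with the mean and SD of each group (n = 3) as bars. Pik3ca and Akt1 are the genes whose 3 Tumor libraries all lie above the 3 WT libraries; Slc2a4, Akt2, Insr and Irs1 are lowest in Tumor replicate 3.

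None of the 9 genes passed the test between the groups. With limma on log2(TPM + 1) the smallest adjusted p among them was 0.737, and of all 14123 genes 0 passed (0% called at an adjusted p below 0.05; smallest adjusted p 0.207). At an unadjusted p below 0.05 there were 2 of the 9, Pik3ca and Akt1, beside 5.44% of all genes. The differences of the 9 were positive for 5 and negative for 4, and their median was 0.02, against 0.23 over all genes tested, of which 76.8% had a positive difference. All Tumor libraries lay above all WT libraries for 2 of the 9 genes, where the background over all genes was 11.8%, and below them for 0 of the 9, where it was 3.24%. At 3 against 3 libraries an exact permutation test cannot go below 0.1.

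**Figure D2:**
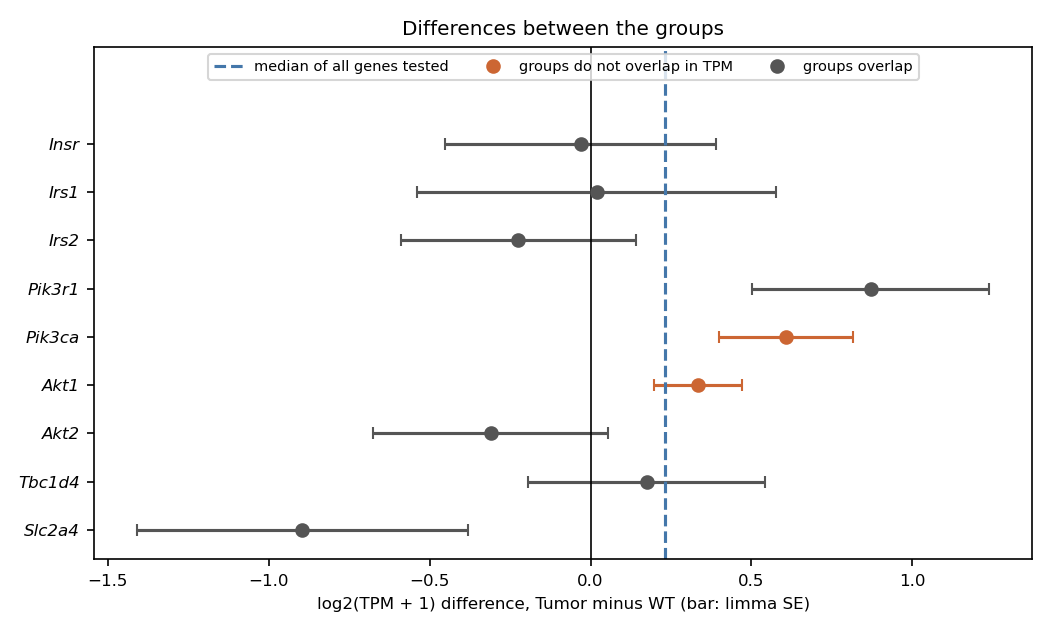
Difference in log2(TPM + 1), Tumor minus WT, for the 9 genes (points) with limma's standard error (bars); the dashed line is the median of all genes tested, 0.23. Slc2a4 is farthest to the left at -0.90 and Pik3r1 farthest to the right at 0.87, and only Pik3ca and Akt1 have groups that do not overlap.

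The receptor gene Insr (chromosome 8, 3122061 to 3279617, minus strand; GRCm38, GENCODE M21) did not separate the groups. It stood at 13.3, 11.0 and 24.2 TPM in the WT libraries and at 22.8, 15.97 and 9.05 TPM in the Tumor libraries. WT replicate 3 and Tumor replicate 1, the lymphoid-poor libraries, were highest, and Tumor replicate 3 was lowest. WT averaged 16.2 ± 7.06 TPM and Tumor 15.9 ± 6.88 TPM (SD, n = 3). The log2 difference was -0.03 (SE 0.42, limma adjusted p = 0.984).

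Irs1 (chromosome 1, 82233101 to 82291416), a docking protein with a single coding transcript in the annotation, varied 5.30-fold between libraries. Its levels were 7.75, 8.15 and 12.8 TPM in WT and 20.5, 9.97 and 3.87 TPM in Tumor. The highest and the lowest of the 6 values both belonged to Tumor libraries, and the WT values lay between them. The log2 difference was 0.02 (SE 0.56, limma adjusted p = 0.992).

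Irs2 (chromosome 8, 10984681 to 11008458), the other docking protein of the set, is a gene that FoxO factors raise when insulin is low. It stood at 6.74, 11.2 and 18.2 TPM in WT and at 11.4, 9.34 and 7.87 TPM in Tumor. The 3 Tumor values lay inside the range of the WT values. The log2 difference was -0.22 (SE 0.37, limma adjusted p = 0.850). The ratio of Irs1 to Irs2 was 1.15, 0.730 and 0.702 in WT and 1.81, 1.07 and 0.492 in Tumor, with overlapping groups (two-sided exact permutation p = 0.7, n = 3 per group).

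Pik3r1 (chromosome 13, 101680563 to 101768217) encodes the p85α regulatory subunit and shorter forms; the annotation lists 7 transcripts, and the table has 1 value for the gene. It stood at 40.3, 20.6 and 33.1 TPM in WT and at 80.4, 59.6 and 36.7 TPM in Tumor. Tumor replicates 1 and 2 were above every WT library, and Tumor replicate 3 was below WT replicate 1. The mean was 1.88-fold higher in Tumor, 58.9 ± 21.9 against 31.3 ± 9.96 TPM (SD, n = 3), with the most positive log2 difference of the 9 genes, 0.87 (SE 0.37, limma adjusted p = 0.737). It lay at the 96.5 percentile of the differences of all genes.

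Pik3ca (chromosome 3, 32397671 to 32468486), the p110α catalytic subunit that insulin signalling in fat relies on, was higher in every Tumor library. Its levels were 21.1, 14.0 and 20.6 TPM in WT and 28.0, 26.4 and 30.9 TPM in Tumor. The groups did not overlap, and WT replicate 2 lay well below the other WT libraries. The means were 18.6 ± 3.98 and 28.4 ± 2.25 TPM (SD, n = 3), 1.53-fold higher in Tumor. At 0.61 on the log2 scale (SE 0.21) the difference missed the threshold (limma adjusted p = 0.737), and it lay at the 89.8 percentile of all genes. The ratio of Pik3r1 to Pik3ca was 1.90, 1.47 and 1.61 in WT and 2.88, 2.26 and 1.19 in Tumor, with overlapping groups (two-sided exact permutation p = 0.5, n = 3 per group).

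Akt1 (chromosome 12, 112653821 to 112674884), a widely expressed AKT, varied least. It stood at 79.0, 69.7 and 75.6 TPM in WT and at 100.1, 92.9 and 90.4 TPM in Tumor. The groups did not overlap, and the residual SD of 0.08 on the log2 scale was at the 1.86 percentile of all genes. The means were 74.8 ± 4.73 and 94.5 ± 5.06 TPM (SD, n = 3), 1.26-fold higher in Tumor, and the log2 difference was 0.33 (SE 0.14, limma adjusted p = 0.737). That difference was at the 64.7 percentile of all genes, close to the median of 0.23. Scaling the libraries by upper-quartile factors brought the groups of Akt1 into contact (78.1 to 82.9 scaled TPM in WT, 81.7 to 99.1 in Tumor), whereas with median-ratio factors they stayed apart by a narrow margin (highest WT 81.2, lowest Tumor 83.4). Scaled by the adipocyte markers the groups of both Akt1 and Pik3ca overlapped.

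Akt2 (chromosome 7, 27591552 to 27640826) encodes the AKT that fat and muscle depend on for insulin-stimulated glucose uptake, and was the most abundant of the 9. It stood at 158, 160 and 269 TPM in WT and at 200.3, 185 and 95.6 TPM in Tumor. WT replicate 3 was the highest library and Tumor replicate 3 the lowest, with the other 4 between 158 and 200.3 TPM. The log2 difference was -0.31 (SE 0.37, limma adjusted p = 0.811), and without Tumor replicate 3 it was 0.02.

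Akt2 was more abundant than Akt1 in 6 of 6 libraries. The ratio of Akt2 to Akt1 was 2.00, 2.29 and 3.56 in WT and 2.00, 1.99 and 1.06 in Tumor. It was highest in WT replicate 3 and lowest in Tumor replicate 3, where the levels of both genes nearly met, while Tumor replicates 1 and 2 were level with WT replicate 1. The groups overlapped (two-sided exact permutation p = 0.2, n = 3 per group). This was 1 of 11 ratios compared, whose adjusted p-values began at 0.44.

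Tbc1d4 (chromosome 14, 101442360 to 101609191), the AKT substrate that holds GLUT4 vesicles back, was highest in the library where Slc2a4 and Akt2 were lowest. It stood at 36.6, 22.9 and 24.0 TPM in WT and at 19.2, 31.8 and 47.6 TPM in Tumor. The lowest value belonged to the lymphoid-poor Tumor replicate 1 and the highest to Tumor replicate 3, which had the most B and plasma cell transcripts. Between these the order differed. The lymphoid-rich WT replicate 2 lay below the lymphoid-poor WT replicate 3. WT replicate 1 lay above Tumor replicate 2, which had more B and plasma cell transcripts (1973 against 1121 TPM). The log2 difference was 0.17 (SE 0.37, limma adjusted p = 0.883), and without Tumor replicate 3 it was -0.13.

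Slc2a4 (chromosome 11, 69942539 to 69948188), which encodes GLUT4, had the most negative difference of the 9 genes, and a single library weighed on it. It stood at 131, 106 and 175 TPM in WT and at 109, 106 and 31.7 TPM in Tumor. Tumor replicates 1 and 2 were level with WT replicate 2, and Tumor replicate 3 was at 23.1% of the WT mean. WT averaged 137 ± 34.8 TPM and Tumor 82.2 ± 43.7 TPM (SD, n = 3); the log2 difference was -0.90 (SE 0.51, limma adjusted p = 0.737), at the 1.28 percentile of all genes. Without Tumor replicate 3 the log2 difference was -0.32.

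Slc2a4 and the adipocyte markers had their highest and lowest values in the same libraries. The geometric mean of the 16 markers (TPM + 1) was 828, 891 and 1569 in WT and 1176, 965 and 318 in Tumor, highest in WT replicate 3 and lowest in Tumor replicate 3. Between these the orders differed: WT replicate 1 had the second highest Slc2a4 and the second lowest marker mean. Per 1000 of this marker mean, Slc2a4 stood at 158, 119 and 111 in WT and at 92.5, 109.9 and 99.8 in Tumor. On this scale the groups no longer overlapped, though WT replicate 3 and Tumor replicate 2 nearly met, and the means were 129 ± 25.3 and 101 ± 8.75 (two-sided exact permutation p = 0.1, the smallest that 3 against 3 allows; adjusted p = 0.44 over 11 ratios). In the fit over all genes with libraries scaled this way, the log2 difference of Slc2a4 was -0.34 (limma adjusted p = 0.594).

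**Figure D3:**
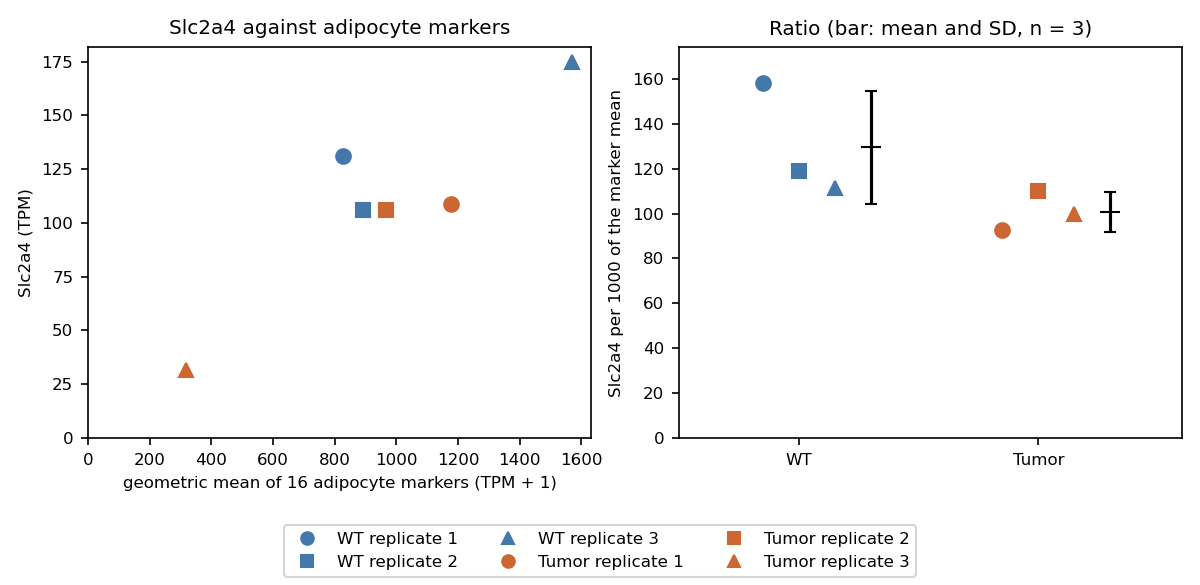
Left, Slc2a4 in TPM against the geometric mean of 16 adipocyte markers in TPM + 1, with 1 point per library and both axes from 0; right, their ratio times 1000 by group, with mean and SD (n = 3). The low Slc2a4 of Tumor replicate 3 goes with the lowest marker mean, and the ratio lies between 92.5 and 158 in all 6 libraries.

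Muscle also makes GLUT4, and the skeletal muscle markers were set beside Slc2a4. Tumor replicate 3 had 3118 TPM of these markers and the least Slc2a4, and WT replicate 3 had 13.5 TPM and the most. With the muscle list as a covariate the log2 difference was -0.50, -0.39 with the adipocyte list and -0.78 with the list of B and plasma cells (limma adjusted p = 0.868, 0.480 and 0.416). All 3 estimates had the sign of the unadjusted one, and none passed.

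Measured against the adipocyte markers, Insr lay on the other side from Slc2a4, and so did the median gene. With libraries scaled by these markers the median log2 difference of all genes tested was 0.73. Insr (0.49) and Irs1 (0.50) lay below that median, and Pik3r1 (1.41) lay above it. Insr per 1000 of the marker mean was 16.02, 12.4 and 15.4 in WT and 19.4, 16.5 and 28.5 in Tumor, higher in every Tumor library (two-sided exact permutation p = 0.1, adjusted p = 0.44 over 11 ratios, n = 3 per group). With libraries scaled by the markers, Insr, Irs1 and Pik3r1 were the members with all Tumor libraries above all WT libraries, beside 12.2% of all genes, and Slc2a4 was the member below, beside 0.446% of all genes. Akt2 on this scale was 191, 179 and 171 in WT and 170, 192 and 301 in Tumor, with overlap. Tumor replicate 3 was highest for Insr and Akt2 on this scale, and its marker mean was the lowest.

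**Figure D4:**
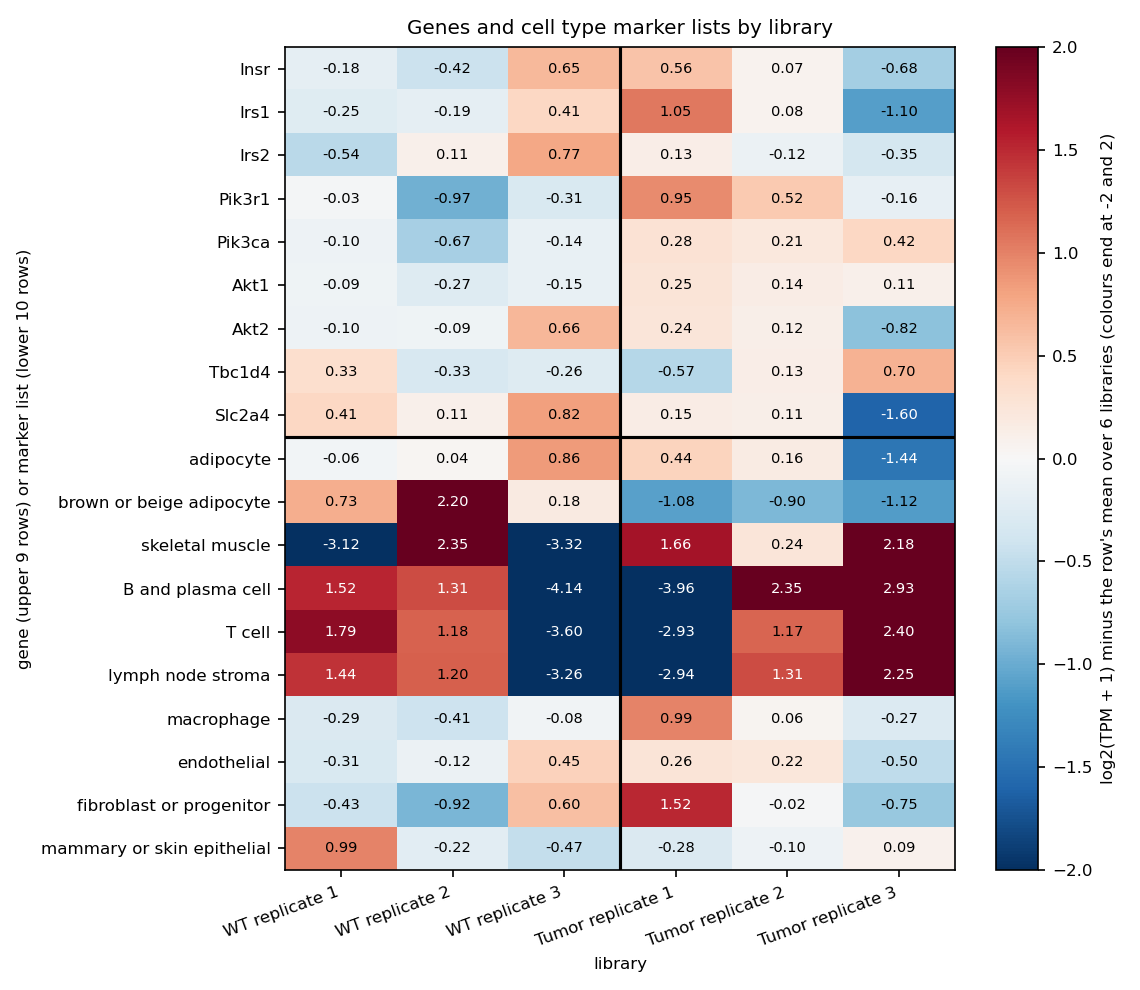
Each row is a gene (upper 9) or the mean of a cell type marker list (lower 10) and each column a library; cells give log2(TPM + 1) minus the row's mean over the 6 libraries, with colours ending at -2 and 2. Slc2a4 and the adipocyte list both reach their minimum in Tumor replicate 3 (-1.60 and -1.44), and Akt1 stays between -0.27 and 0.25.

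Set beside the other lists, Insr was highest in the libraries poorest in B and plasma cell markers (0.65 and 0.56 above its mean on the log2 scale in WT replicate 3 and Tumor replicate 1), and so was Irs1. The adipocyte list (0.86 and 0.44), the fibroblast or progenitor list (0.60 and 1.52) and the endothelial list (0.45 and 0.26) were highest in the same libraries. Pik3r1 was highest in Tumor replicate 1 (0.95), as were the macrophage list (0.99) and the fibroblast or progenitor list (1.52). Summed fibroblast or progenitor markers (12 genes, none at 0) were 1496 to 4124 TPM in WT and 1475 to 9259 TPM in Tumor. Summed macrophage markers (11 genes, led by Lyz2 and C1qa, none at 0) were 1874 to 2242 TPM in WT and 2521 to 4462 TPM in Tumor, whereas their geometric means (TPM + 1), which weight the genes equally, overlapped at 61.8, 56.9 and 71.8 in WT and 151, 78.8 and 62.7 in Tumor. Pik3r1, Pik3ca and Akt1 were lowest in WT replicate 2, the library highest in both skeletal muscle and brown or beige adipocyte markers. The brown or beige list of 7 genes summed to 741 to 2053 TPM in WT and 207 to 326 TPM in Tumor, with Elovl3 at 0 in at least 1 library. The part of these cell types in the levels of the 9 genes was not tested beyond the covariates given above. In the 4 lymphoid-rich libraries alone, 2 against 2, the log2 differences were 0.70 for Pik3ca, 0.30 for Akt1, 0.68 for Pik3r1 and -1.01 for Slc2a4. None passed (limma adjusted p = 0.563, 0.616, 0.572 and 0.572). For Slc2a4 this subset holds Tumor replicate 3 at 31.7 TPM, while Tumor replicate 2 was level with WT replicate 2 at 106 TPM.

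The genes whose pattern over the 6 libraries was most like each member were taken by Pearson correlation of log2(TPM + 1) among genes with a mean of at least 5 TPM, as a description. All libraries share the division into lymphoid-rich and lymphoid-poor, and 155 of 10907 genes reached a correlation of 0.95 with Slc2a4. Among the closest to Slc2a4 were Odf3l1 (0.996), Ppp1r3d (0.992), Spr (0.991) and Acsl1 (0.990); Ppp1r3d encodes a glycogen-targeting subunit of protein phosphatase 1 and Acsl1 a long-chain acyl-CoA synthetase. Closest to Insr were Nfix, Syap1 and Egfr (0.999, 0.999 and 0.998), to Akt2 Trap1, Slc1a5 and Mgme1 (0.998, 0.998 and 0.997), and to Irs1 Ttc23, Pf4 and Ppa1 (0.994, 0.993 and 0.993). Irs2 was closest to Ifrd1 (0.994), Ap5s1 (0.986) and Eid2 (0.974), and had only 8 genes at 0.95 or more. For Pik3r1 these were Rnf168, Tmem165 and Ppp4r1l-ps (0.991, 0.991 and 0.987), for Pik3ca Kctd5, Zfp644 and Crebrf (0.997, 0.997 and 0.996), for Akt1 B2m, Cbx6 and Dynlt1f (0.991, 0.990 and 0.989), and for Tbc1d4 Pde7a, Cblb and Bop1 (0.990, 0.989 and 0.989). B2m, the light chain of MHC class I, stood at 3302 to 3749 TPM in WT and 4051 to 4515 TPM in Tumor.

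The wider pathway was read from 9 lists of genes, in none of which a gene passed the test (limma, adjusted over all genes). The lists include the 9 members, so their counts are not independent of those given above. Receptors, adaptors and docking proteins had 15 of 16 genes tested, a median log2 difference of 0.15 and 9 positive differences. Irs3, a docking protein gene outside the set, stood at 20.4, 15.1 and 38.0 TPM in WT and 20.8, 18.4 and 4.22 TPM in Tumor. It exceeded Irs1 in every library and Irs2 in all but Tumor replicate 3. Its log2 difference was -0.87 (limma adjusted p = 0.741). Sh2b2, the adaptor APS, was lower in every Tumor library, at 28.4, 28.3 and 41.3 TPM in WT and 21.9, 25.2 and 20.2 TPM in Tumor (log2 difference -0.51, limma adjusted p = 0.737). The ubiquitin ligase gene Cbl, which acts with APS at the receptor, stood at 13.3, 8.89 and 7.34 TPM in WT and 11.1, 14.6 and 18.8 TPM in Tumor. Sh2b2 was the 1 gene of this list with all Tumor libraries below, and 2 genes lay above, beside 3.24% and 11.8% of all genes.

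PI3-kinase, PDK1, mTORC2 and AKT genes (14 of 14 tested) had a median log2 difference of 0.26, near the 0.23 of all genes, with 11 positive (76.8% of all genes were) and 3 separating upward (11.8% of all genes did). These 3 were Mlst8 and the members Pik3ca and Akt1, which were already counted above. Among 18 brakes on the pathway, all tested, the median was 0.25 with 15 positive, near the 0.23 and 76.8% of all genes. All Tumor libraries lay above all WT libraries for 1 of them, Inpp5k, and below for 1, Trib3. The shares over all genes were 11.8% and 3.24%. Trib3, a pseudokinase that can bind AKT, was lower in every Tumor library, at 4.01, 4.42 and 5.93 TPM in WT and 2.92, 2.59 and 2.60 TPM in Tumor (log2 difference -0.63, limma adjusted p = 0.737). The docking protein gene Dok1 stood at 21.4, 15.4 and 11.5 TPM in WT and at 17.7, 25.5 and 39.5 TPM in Tumor, with overlap.

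The AKT substrates (14 of 14 tested) had a median of 0.11, with 9 positive (76.8% of all genes were). All Tumor libraries lay above all WT libraries for Foxo3 and Pfkfb2 and below for Acly, beside 11.8% and 3.24% of all genes. Acly is counted again among the genes that insulin raises in fat. Acly, ATP citrate lyase, which makes cytosolic acetyl-CoA for fatty acid synthesis, stood at 746, 296 and 678 TPM in WT and 171, 145 and 149.5 TPM in Tumor. The groups did not overlap, and the log2 difference was -1.77 (SE 0.38, limma adjusted p = 0.737). Foxo3, a transcription factor that AKT keeps out of the nucleus, lay the other way, at 9.04, 7.17 and 7.34 TPM in WT and 10.9, 11.7 and 13.8 TPM in Tumor (log2 difference 0.57, limma adjusted p = 0.737).

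The GLUT4 vesicle list, which includes Slc2a4, had 38 of 38 genes tested, a median of 0.23, 32 positive differences and 7 genes above in every Tumor library. Over all genes 76.8% had a positive difference and 11.8% separated that way. Myo5a, a myosin motor of vesicle transport, stood at 21.4, 16.6 and 15.95 TPM in WT and at 31.5, 25.8 and 26.8 TPM in Tumor (log2 difference 0.62, limma adjusted p = 0.737). Sec16a, an organiser of exit sites of the endoplasmic reticulum, stood at 34.3, 22.0 and 29.1 TPM in WT and at 35.6, 39.1 and 47.9 TPM in Tumor. Slc2a4 was thus the gene of its own vesicle list with the most negative difference.

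Slc2a4 was the most abundant Slc2a transcript in 6 of 6 libraries, with a share of 65.3%, 66.4% and 73.2% of the TPM of 11 Slc2a genes in WT and 66.8%, 59.3% and 28.9% in Tumor (two-sided exact permutation p = 0.3, n = 3 per group). Slc2a1, the GLUT1 transporter that works without insulin, stood at 19.4, 16.5 and 10.2 TPM in WT and 9.86, 22.5 and 28.6 TPM in Tumor, so that Slc2a4 was 6.75, 6.42 and 17.1 times Slc2a1 in WT and 11.0, 4.71 and 1.11 times in Tumor. Of the other 11 glucose transporter genes 8 were tested, with a median difference of 0.37. Slc2a5, the fructose transporter GLUT5, was the family member that separated the groups most. It stood at 13.2, 10.1 and 11.6 TPM in WT and 1.32, 2.24 and 1.32 TPM in Tumor, 11.6 ± 1.54 against 1.63 ± 0.527 TPM (SD, n = 3), and the log2 difference was -2.27 (SE 0.25, limma adjusted p = 0.386). Slc2a10 stood at 1.06, 1.18 and 2.79 TPM in WT and 3.72, 2.80 and 2.99 TPM in Tumor.

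Transcription factors that act on the Slc2a4 gene (15 of 15 tested) had a median of -0.11, with 7 positive and 8 negative, and no gene separated the groups. Sp1 stood at 16.6, 10.6 and 13.7 TPM in WT and at 16.1, 20.8 and 22.6 TPM in Tumor. Mlxipl, the glucose-sensing factor ChREBP, stood at 83.3, 60.0 and 161 TPM in WT and at 69.6, 54.5 and 20.3 TPM in Tumor, with overlap. Its lowest value, like that of Slc2a4 and of the adipocyte list, was in Tumor replicate 3. Klf15, Nr1h3, Pparg, Cebpa, Srebf1, Thra and Nfib were lowest there as well, and the other factors of the list were not.

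Genes that insulin is known to raise in fat had mostly negative differences, and none passed the test. Of 13, all tested, 12 had a negative difference, the median was -0.91, and 6 had all Tumor libraries below all WT libraries (among them Hk2, Fasn, Acaca, Elovl6 and Acly), beside 3.24% of all genes. Elovl6 and Fasn had the smallest p of the list, with log2 differences of -2.24 and -1.90 (limma adjusted p = 0.386 and 0.737). The adipocyte markers had negative differences in 15 of 16 genes, with a median of -0.47, and the brown or beige markers in 6 of 6 tested, with a median of -1.85; their part in the values of this list was not tested. Most of these genes serve fatty acid synthesis, whose lower level in these libraries was known when the list was drawn up, so the count is not independent of it. Hk2, the insulin-responsive hexokinase that traps the glucose brought in by GLUT4, stood at 46.1, 63.2 and 56.9 TPM in WT and 35.8, 36.9 and 15.1 TPM in Tumor, and the log2 difference was -0.99 (limma adjusted p = 0.737).

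Genes that FoxO factors raise in low insulin, among them Irs2 and Insr, showed no common direction. Of 16, all tested, 7 were positive and 9 negative, the median was -0.12, and 1 gene, Sod2, had all Tumor libraries below all WT libraries, beside 3.24% of all genes. Sod2, the mitochondrial superoxide dismutase, stood at 208, 231 and 236 TPM in WT and 161, 148 and 88.4 TPM in Tumor (log2 difference -0.80, limma adjusted p = 0.737). Pdk4, a kinase that restrains pyruvate dehydrogenase, stood at 30.9, 130 and 68.2 TPM in WT and 36.7, 30.3 and 21.9 TPM in Tumor, with overlap.

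**Figure D5:**
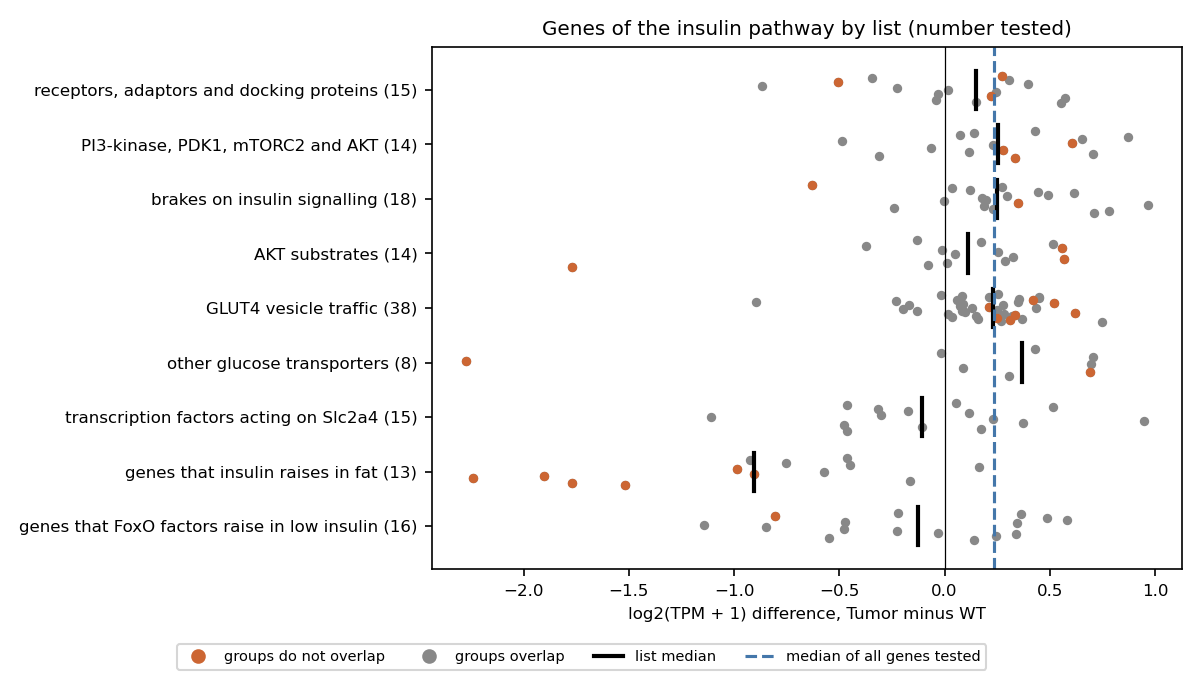
Differences in log2(TPM + 1), Tumor minus WT, of each tested gene in 9 lists (points), with the list median (black) and the median of all genes tested, 0.23 (dashed); the number tested is in brackets. The lists from receptor to vesicle have medians of 0.11 to 0.26, and the genes that insulin raises in fat have -0.91.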

How the data were processed

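Poly-A RNA of 6 libraries of mouse subcutaneous white adipose tissue was measured, from RNA with an integrity number above 7 per the labels' protocols. The authors deposited 1 table of TPM under a name that speaks of raw counts; its values are fractional and add up to 1000000 per library, and TPM keeps no depth, so reads per library are not known and no counting error is given. Per the submitters' processing notes GRCm38.p6 and DESeq2 were used, with no role stated; aligner and quantifier: not given in the sources used here. How reads of close paralogs and overlapping genes were divided is not stated, nor is how the transcripts of a gene were combined into its value.

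The 26 rows named as dates and the 4 rows with repeated names were left out. Groups came from the sample titles. limma 3.58.1 (R 4.3.3) was fitted to log2(TPM + 1) with a mean-variance trend, robust moderation and group alone, over the 14123 genes with at least 1 TPM in 3 libraries, with Benjamini-Hochberg adjustment and a threshold of 0.05. Differences on this scale understate changes of low genes. The fit was tested on simulated data. Ratios were compared by exact permutation (scipy 1.17.1). The replicates are titled biological, and whether each is a separate animal is not stated, so p-values measure only the spread between these libraries.

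The members and lists were chosen with earlier results of these data known. Named genes were the 9 members, from each pathway list up to 4 genes past the threshold or else the 2 with the smallest p, the 2 most abundant genes of marker lists, and the 5 genes closest to Slc2a4 or the 3 closest to another member. Slc2a1, Hk2 and other genes outside that rule were named after their values were seen. Some genes that the rule names are not reported here. Coordinates are from GENCODE M21 and upstream sequences from RefSeq. Alternatives covered pseudocounts, filters, variance models, scalings, covariates, subsets of libraries and the replicate block.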

Additional observations from a re-analysis of the deposited data

How the results depend on the processing

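Over 20 alternatives the count of genes past the threshold was 0 in 19 and 1 with the B and plasma cell covariate (Gm11594, named after its values were seen); the smallest adjusted p of a member under any was 0.352. Leaving out each library gave 0 throughout. The median difference of the 9 members, 0.02, ran from -0.32 to 0.30 without single libraries and from -0.18 to 0.50 otherwise, and kept its sign in 12 of the 20. Pik3r1, Pik3ca, Akt1 and Slc2a4 kept their sign in all 20, with ranges of 0.60 to 1.41, 0.40 to 1.15, 0.12 to 0.89 and -1.19 to -0.32. The other 5 changed sign in 24 values. Irs1 was -0.0067 with a pseudocount of 0.1, -0.18 and -0.16 with median-ratio and upper-quartile factors, and -0.29 in the lymphoid-rich libraries; Tbc1d4 was -0.038 and -0.019 with the same factors and -0.12 with the adipocyte covariate. Insr was 0.49 scaled by adipocyte markers, and 0.35, 0.33 and 0.10 with the adipocyte, muscle and B cell covariates. Irs2 was 0.30 and Akt2 0.25 scaled by adipocyte markers, and 0.0042 and 0.041 with the adipocyte covariate. Without single libraries the differences ran from -0.32 to 0.30 for Insr, -0.50 to 0.57 for Irs1, -0.55 to 0.10 for Irs2, -0.51 to 0.02 for Akt2 and -0.13 to 0.50 for Tbc1d4; Irs1 was -0.10, -0.069, -0.50 and -0.014 without WT replicates 1 and 2 and Tumor replicates 1 and 2. Insr and Irs2 were 0.28 and 0.10 without WT replicate 3; Insr, Akt2 and Tbc1d4 were 0.30, 0.023 and -0.13 without Tumor replicate 3. The cause was not tested. The number of members with all Tumor above all WT libraries, a count added after seeing the data, was 2 with median-ratio factors, 1 with upper-quartile factors and 3 scaled by adipocyte markers (backgrounds 3.78%, 4.47% and 12.2%); Slc2a4 lay below in all 3 scalings, beside 6.46%, 5.64% and 0.446% of all genes. Median-ratio and upper-quartile factors brought the median of all genes to 0.04 and 0.06, and turned the genes at an unadjusted p below 0.05 from 528 higher and 240 lower to 129 and 521, and 157 and 441. Scaling by adipocyte markers brought that median to 0.73, with 141 genes higher and 14 lower at the same unadjusted threshold. The replicate block gave 0 genes past the threshold (182 at an unadjusted p below 0.05). It left the differences as they were, with limma adjusted p-values of 0.985 or more for the 9. Whether equal numbers pair these libraries is not stated. For equal numbers the correlations of the deviations from the group means were -0.76, 0.20 and -0.84. The lymphoid-poor WT replicate 3 and Tumor replicate 1 had 0.85, so these correlations follow the lymphoid division and cannot settle the pairing. Depth is not known from TPM, and the small number of libraries limits the precision.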
